A study of Danio rerio with 25 samples.

Results

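The miR-29 family is represented by 3 microRNA hairpins, miR-29a, miR-29b-1 and miR-29b-2, in small-RNA libraries of zebrafish (Danio rerio) skin. They were taken as every hairpin of the deposited table whose number is 29, any letter or copy, which gave 3 of 346 hairpins. The table held 25 libraries from skin of male fish, 5 at each of 6, 12, 24, 36 and 42 months. The labels do not state that libraries are separate fish, so the p-values below rest on differences between libraries, which may be technical.

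The strain label was AB JxTü at 6 and 24 months. It carried a reporter transgene at the other ages, Tg(flk:mCherry) at 12, Tg(pu.1:GFP) at 36 and Tg(wt1a:GFP) at 42 months. Strain and age cannot be told apart except between 6 and 24 months. Totals on hairpins ran from 683884 reads in 42 months replicate 2 to 5206505 reads in 12 months replicate 5. The keratinocyte microRNAs miR-203 and miR-205, which mark epidermis, summed to a mean of 76926 to 97348 CPM (counts scaled to a common library size) over the 5 ages, with neither at 0 in the table.

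MicroRNAs of the miR-29 family bind mRNAs through a seed shared by miR-29a and miR-29b. In mammals their best known targets encode the extracellular matrix, including fibrillar collagens, elastin and fibrillin, and also DNA methyltransferases. Transforming growth factor beta lowers the family in mammalian fibroblasts while collagen production rises. In some tissues of the mouse, and in the brain of the turquoise killifish, the family has been reported to rise with age. No collagen or other mRNA was measured here.

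In the RefSeq gene table (assembly GRCz12tu) all 3 hairpins were found by name or synonym. The match of miR-29b-2 is uncertain: it is a synonym of the gene with the symbol dre-mir-29b3, and that symbol is in turn a synonym of another gene, mir29b3. By this match miR-29a and miR-29b-2 lie next to each other, with no annotated gene between them, net1 on one side and mkln1 on the other. MiR-29b-1 lies on another chromosome, between uncharacterised long non-coding RNA genes. The gene mir29b3, the 4th of the family listed there, was not analysed here. Counts are per hairpin, so reads of the 2 arms of a hairpin cannot be told apart.

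MiR-29a was the main member. Over the 25 libraries it averaged 581 ± 127 CPM (SD), rank 108 of 346 hairpins and 0.0588% of all counts. MiR-29b-1 averaged 79.5 ± 46.3 CPM (rank 177) and miR-29b-2 76.8 ± 41.2 CPM (rank 178). The mean of miR-29a was thus 3.72 times that of both miR-29b copies summed. Counting noise was small beside this, with 375 to 3356 reads per library for miR-29a, 77 to 496 for miR-29b-1 and 76 to 452 for miR-29b-2.

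The miR-29b copies held nearly the same counts. Copy 1 had 5879 reads and copy 2 had 5663 over all libraries, and the ratio of copy 1 to copy 2 lay between 0.802 and 1.20. In 23 of 25 libraries the 95% Wilson interval of the share of copy 1 included 50%. The sources used here do not say how a read that matches both copies was counted. Counts of hairpins called below list the copies separately, but the copies may share reads and are not independent measurements. Their sum is used for levels below.

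Levels of miR-29a in single libraries were lowest as a group at 6 months. The 5 libraries of that age held 349, 507, 465, 472 and 542 CPM in replicates 1 to 5. At 12 months they held 386, 572, 708, 647 and 585 CPM. Replicate 1 was the lowest at each of these ages, but replicate numbers follow record order and do not link libraries across ages. The other 4 libraries of 12 months were above every library of 6 months. At 24 months the values were 733, 599.9, 893, 717 and 429 CPM, the widest range of the series, with 4 of 5 above every 6-month library and replicate 5 inside their range. At 36 months they were 609, 610.0, 538, 564 and 630.1 CPM, the closest set. At 42 months they were 483, 625, 695, 742 and 424 CPM, with 3 of 5 above the 6-month libraries. No later age was clear of the 6-month range, and at 36 months the overlap was a single library, replicate 3, just below the highest 6-month value.

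The order of mean miR-29a was 24 months (674 ± 172 CPM), 42 months (594 ± 136), 36 months (590.2 ± 37.9), 12 months (580 ± 121) and 6 months (467 ± 72.8; SD, n = 5 each). The ages from 12 to 42 months did not differ beyond their spread. In the 6 pairs among these 4 ages, the 18 log2 changes of the 3 hairpins lay between -0.21 and 0.30, and edgeR called 0 of them (smallest adjusted p = 0.558, 0 at an unadjusted p under 0.05, and 0 by DESeq2 or limma-voom). Over all hairpins and these 6 pairs together, 5.75% of tests were called, and 24.6% had an unadjusted p under 0.05.

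**Figure D1:**
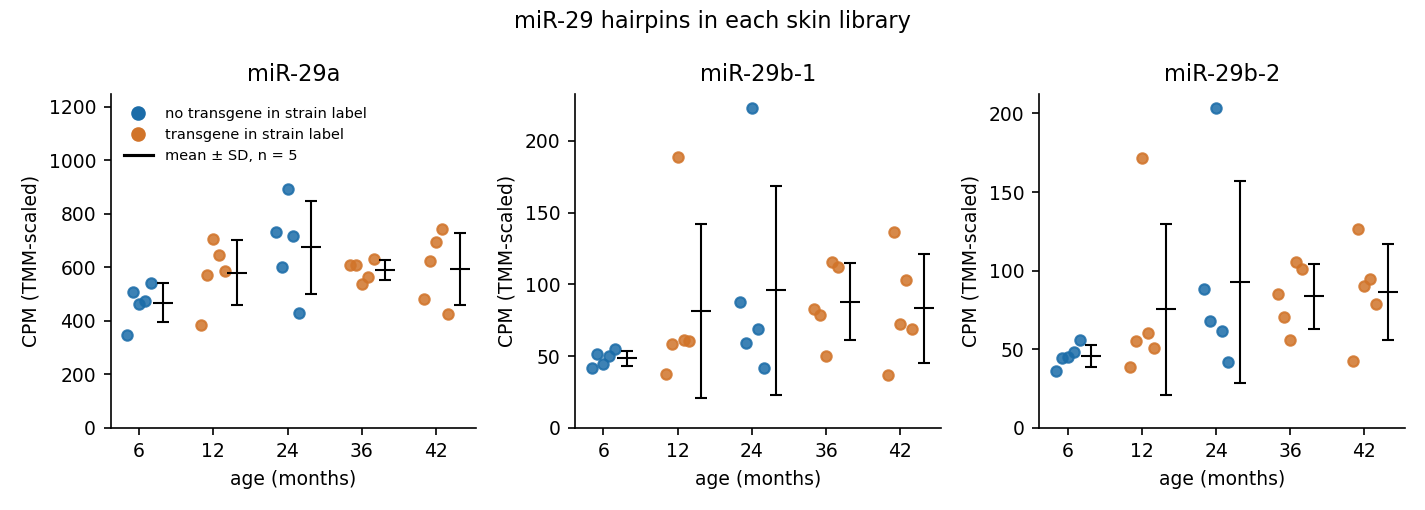
CPM of miR-29a, miR-29b-1 and miR-29b-2 (vertical axes, CPM on TMM-scaled library sizes) by age in months, 1 point per library, with the mean ± SD of 5 libraries beside each age and colour for the presence of a transgene in the strain label. The 6-month libraries lie close together, and for miR-29b a single library at 12 and at 24 months (replicate 3 of each) stands above all others of its age.

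Levels of miR-29b, with copies summed, were also lowest and most even at 6 months. The libraries of that age held 77.8, 95.6, 89.7, 98.3 and 111 CPM in replicates 1 to 5. At 12 months they held 76.3, 114, 360.4, 121 and 112 CPM, and at 24 months 176, 127, 426, 131 and 83.7 CPM. Replicate 3 was more than double the next library at both ages, and 24 months replicate 1 was also well above the 6-month values. The remaining 7 libraries of both ages lay between 76.3 and 131 CPM. At 36 months the values were 168, 149.7, 106, 221 and 213.5 CPM. At 42 months they were 79.0, 263, 162, 198 and 148 CPM. From 12 months on, 4 of 5 libraries at each age were above the highest 6-month library.

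Means of miR-29b were 94.4 ± 12.0 CPM at 6 months, 157 ± 115 at 12, 189 ± 137 at 24, 172 ± 47.4 at 36 and 170.0 ± 67.7 at 42 months (SD, n = 5 each). The medians gave another order, with 95.6, 114, 131, 168 and 162 CPM at the same ages. The coefficient of variation was 12.7% at 6 months, 73.5% at 12, 72.5% at 24, 27.6% at 36 and 39.8% at 42 months. For miR-29a it was 15.6% at 6 months and between 6.42% and 25.6% later. With all 3 hairpins summed, means were 561 ± 84.0 CPM for 6 months, 736 ± 218 for 12, 863 ± 297 at 24, 762 ± 73.0 at 36 and 764 ± 182 at 42 months.

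The comparison of 24 with 6 months asks how skin differs between ages that carry the same strain label. MiR-29a was higher at 24 months, by 0.53 ± 0.18 on the log2 scale (SE; edgeR quasi-likelihood test, adjusted p = 0.0362), a mean 1.44 times that at 6 months, and it was the only 1 of the 3 hairpins called. MiR-29b-1 had a log2 change of 0.98 ± 0.43 (adjusted p = 0.101) and miR-29b-2 one of 1.01 ± 0.39 (adjusted p = 0.0609), larger but with a wider spread. With the copies of every microRNA summed before the fit, miR-29b changed by 1.07 ± 0.39 (SE, edgeR quasi-likelihood test, adjusted p = 0.0503) and was not called. In the same fit miR-29a changed by 0.63 ± 0.16 (adjusted p = 0.00743) and was called. The share of all names called there is not given. All 3 hairpins, including the miR-29b copies that may share reads, had an unadjusted p under 0.05, as did 35.7% of all hairpins. Among all 258 hairpins tested, 8.91% were called higher and 16.3% lower in this pair, and the median change over all of them was 0.05. The change of miR-29a relative to that median was 0.48.

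In the fit with copies kept apart, the call of miR-29a lay near the threshold and depended on single libraries. Leaving out 24 months replicate 3 gave a change of 0.38 (adjusted p = 0.241), and the call was also lost without 6 months replicate 1, 6 months replicate 4, 24 months replicate 1 or 24 months replicate 4. There the change stayed near its size over all libraries, at 0.48, 0.53, 0.55 and 0.51, and just missed the threshold (adjusted p = 0.0716, 0.0653, 0.0600 and 0.0716). It was kept without any of the other 5 libraries, and lost with limma-voom (adjusted p = 0.0518). For miR-29b-1 and miR-29b-2 the change went to 0.38 and 0.47 without 24 months replicate 3 (adjusted p = 0.521 and 0.434), while DESeq2, which called 31.8% of all hairpins in this pair, called both over all libraries (adjusted p = 0.0457 and 0.0228). Without 24 months replicate 5, the lowest of its age, edgeR called both as well (adjusted p = 0.0450 and 0.0243), beside 24.7% of all hairpins. Removal of the lowest library of an age raises its mean, so the calls without it support nothing. Removal of the highest, such as 24 months replicate 3, lowers the mean in the same way, so the direction of that drop was fixed in advance.

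**Figure D2:**
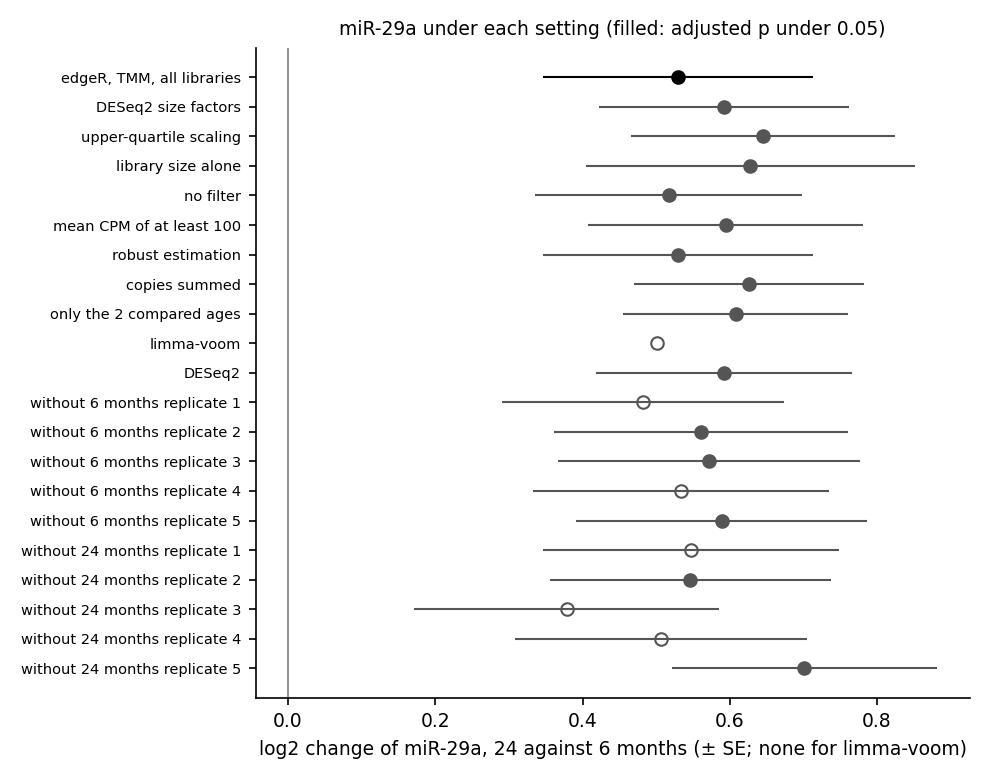
Log2 change of miR-29a from 6 to 24 months (horizontal axis, ± SE where the method gives one) under each setting, 1 row per setting, filled where the adjusted p was under 0.05. All values lie above 0, between 0.38 and 0.70, and the lowest is that without 24 months replicate 3.

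Other tissue markers moved in 24 months replicate 3. The liver microRNA miR-122 was at 1826 CPM there, against 138 to 392 CPM in the other 24-month libraries and 50.9 to 213.9 CPM at 6 months. The erythroid microRNAs miR-144 and miR-451 summed to 6035 CPM, against 1019 to 3115 CPM in the other 24-month libraries and 1711 to 3029 CPM at 6 months. The lists for keratinocytes, skeletal muscle, leukocytes, endothelium, mesenchyme and neural cells lay within the range of the other libraries in that sample. In 12 months replicate 3 all 8 of these lists lay within that range, with miR-122 at 34.6 CPM. Of the markers tested between 24 and 6 months, where 8.91% of all hairpins were called higher and 16.3% lower, edgeR called the 1 liver hairpin higher and 1 of 3 keratinocyte hairpins lower, and none of 8 muscle, 4 leukocyte, 2 erythroid, 2 endothelial, 7 mesenchymal or 13 neural hairpins. Most of these lists are too small to set against that share. The part of other cell types in the miR-29 values was not tested. In whole skin, fewer cells of a type and less RNA per cell cannot be told apart.

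Against 6 months, the ages with a transgene in the label gave changes of the same direction, and edgeR called 0 of 3 hairpins at each. At 12 months the log2 changes were 0.31 ± 0.18 for miR-29a, 0.74 ± 0.43 for miR-29b-1 and 0.71 ± 0.39 for miR-29b-2 (SE, adjusted p = 0.304, 0.300 and 0.263). The background there was low, with 1.16% of hairpins called higher, and none of the 3 had an unadjusted p under 0.05, against 26.7% of all. The change of miR-29a was 0.20 without 6 months replicate 1 and 0.49 without 12 months replicate 1 (adjusted p = 0.0918). Without 12 months replicate 3 the changes of the miR-29b copies there were 0.21 and 0.21. Each of these left-out libraries was the lowest or highest of its age in the hairpin named, so the direction of each shift was fixed in advance. At 36 months the changes were 0.34 ± 0.18, 0.86 ± 0.43 and 0.87 ± 0.39 (adjusted p = 0.172, 0.151 and 0.117), beside 10.9% of all hairpins called higher. At 42 months they were 0.35 ± 0.18, 0.76 ± 0.43 and 0.90 ± 0.40 (adjusted p = 0.169, 0.191 and 0.0957), beside 11.6% called higher. With copies summed before the edgeR fit, miR-29b changed by 0.82, 0.94 and 1.00 at 12, 36 and 42 months (adjusted p = 0.243, 0.0938 and 0.0636). MiR-29a changed by 0.40, 0.43 and 0.50 in that fit (adjusted p = 0.156, 0.0577 and 0.0233), so it was called at 42 months. The share of all names called in these pairs is not given.

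Calls of miR-29b at the oldest ages depended on the test. At an unadjusted p under 0.05 edgeR gave 1 of 3 hairpins, miR-29b-2, at 36 and at 42 months, where 33.7% and 38.8% of all hairpins passed. DESeq2 called none at 12 or 36 months and miR-29b-2 at 42 months (adjusted p = 0.0482, beside 28.3% of all hairpins), and limma-voom called none at any of these ages. EdgeR fits with only the 2 compared ages also repeat the filter and the scaling. In them miR-29b-1 and miR-29b-2 were called higher at 36 months (adjusted p = 0.0113 and 0.00612) and miR-29b-2 at 42 months (adjusted p = 0.0249). The reason for these added calls was not tested. Of all hairpins, 36.6% and 16.7% were called in these fits. All 4 comparisons use the same 6-month libraries.

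**Figure D3:**
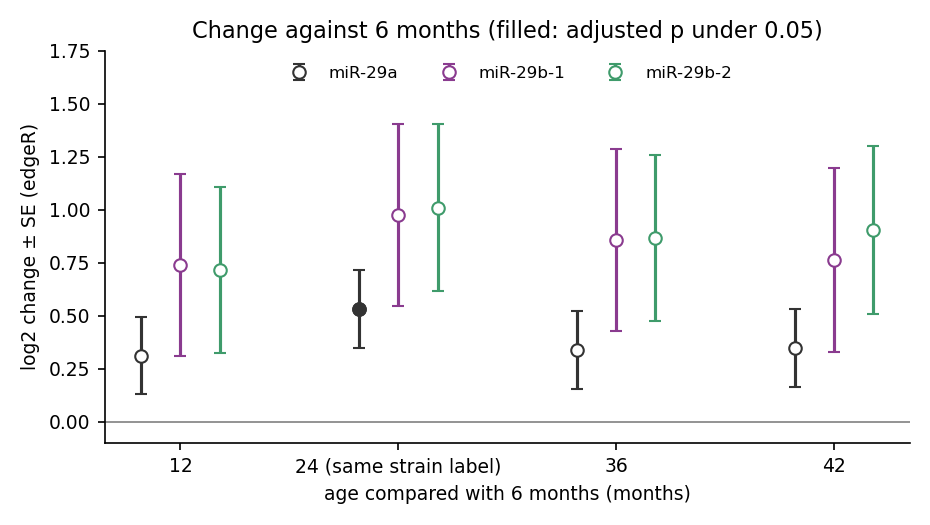
Log2 change ± SE (edgeR) of the 3 hairpins at each later age against 6 months, filled where the adjusted p was under 0.05. All 12 changes lie above 0, from 0.31 to 1.01, and the filled point is miR-29a at 24 months.

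Over all 5 ages together none of the 3 hairpins passed edgeR's test of any difference (adjusted p = 0.174, 0.313 and 0.204 for miR-29a, miR-29b-1 and miR-29b-2, and 0 at an unadjusted p under 0.05). Of all hairpins tested, 38.4% were called and 52.3% had an unadjusted p under 0.05. DESeq2 called 1, miR-29a (adjusted p = 0.0420, beside 49.6% of all hairpins), and limma-voom none. With the copies of every microRNA summed before the fit, which also changes the scaling, edgeR called miR-29a (adjusted p = 0.0311), beside 36.3% of names. MiR-29b was not called there (adjusted p = 0.162).

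In the linear trend 0 of 3 hairpins were called, by edgeR, DESeq2 or limma-voom, and none had an unadjusted p under 0.05 in edgeR, against 37.6% of all hairpins. The log2 slopes per 12 months were 0.08 ± 0.06 for miR-29a, 0.18 ± 0.13 for miR-29b-1 and 0.22 ± 0.12 for miR-29b-2 (SE, adjusted p = 0.311, 0.316 and 0.178). In the same fit 12% of all hairpins were called higher and 13.2% lower, and the median slope of all was -0.01. Leaving out 12 months replicate 3 raised the slopes of the miR-29b copies to 0.31 and 0.35 (adjusted p = 0.0457 and 0.0147), which were then called, beside 22.8% of all hairpins. That library was the highest in miR-29b of its age. Its removal lowers the mean of a young age, which raises the slope, and narrows the spread that is tested, so these calls support nothing.

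The balance of the members within a library does not depend on how libraries are scaled. MiR-29a made up 83.1% ± 0.936 of miR-29 counts at 6 months, 80.3% ± 7.84 at 12, 79.8% ± 6.95 at 24, 77.7% ± 4.60 at 36 and 78.1% ± 6.05 at 42 months (SD, n = 5 each). The ages did not pass a Kruskal-Wallis comparison with permuted labels (permutation p = 0.413). Nor did 24 against 6 months in a two-sided exact permutation test (difference -3.29 percentage points, p = 0.397). The difference was -0.25 points without 24 months replicate 3, which had the lowest share of its age, so the direction of that shift was fixed in advance. The SD between libraries was lowest at 6 months, a difference in spread that was not tested. At 6 months the 5 libraries lay between 81.8% and 84.1%, where the widest 95% Wilson interval of a single library ran from 79.4% to 83.9%.

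The lowest shares of miR-29a were 66.3% in 12 months replicate 3 (95% Wilson interval 64.5% to 68.0%) and 67.7% in 24 months replicate 3 (65.9% to 69.4%). The other libraries of 12 months lay between 83.4% and 84.2% and those of 24 months between 80.7% and 84.6%. Low shares also occurred in 42 months replicate 2 (70.4%, interval 66.3% to 74.1%), 36 months replicate 4 (71.8%), 42 months replicate 5 (74.2%) and 36 months replicate 5 (74.7%). Both copies of miR-29b were high in each of the first 2 libraries, at 189 and 172 CPM and at 222.9 and 204 CPM. These intervals cover counting error only.

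Libraries with fewer reads tended to have a lower share of miR-29a. Across the 25 libraries Pearson's r between the log2 total and the share was 0.52 (permutation p = 0.0089) and Spearman's rho was 0.37 (p = 0.0687). After removal of the 2 libraries farthest from the median total r was 0.43 (permutation p = 0.0379), and within ages it was 0.54 (permutation p = 0.0135). Depth also went partly with age, with totals of 683884 to 2838826 reads at 42 months against 2358752 to 5196081 reads at 6 months. The part of depth in the miR-29b values, and in the differences between ages, was not tested. The relation of total and share was added after the data were seen, 1 of 2 relations computed. Each of its p-values was the same after Benjamini-Hochberg adjustment over both.

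**Figure D4:**
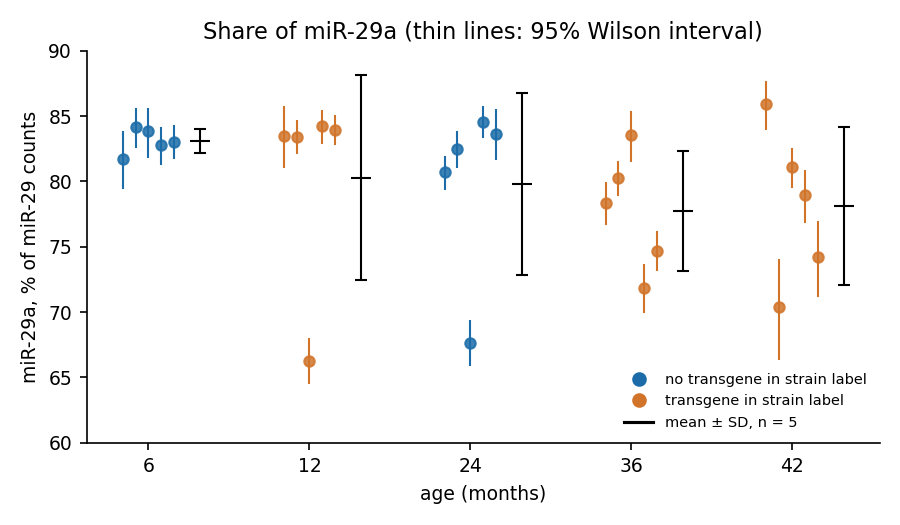
Counts of miR-29a as a percent of all miR-29 counts (vertical axis, from 60% to 90%) by age in months, 1 point per library with its 95% Wilson interval, and the mean ± SD of 5 libraries beside each age. The 6-month libraries lie within 81.8% to 84.1%, and the lowest points are replicate 3 at 12 months (66.3%) and at 24 months (67.7%).

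The members varied together between libraries. On the log2 scale, CPM of miR-29a and of miR-29b with copies summed had a Pearson's r of 0.77 (permutation p = 2e-05, adjusted 4e-05) and a Spearman's rho of 0.80 (permutation p = 1e-05, the smallest that the resamples can give, adjusted 2e-05) over 25 libraries. Without 24 months replicate 3 and 6 months replicate 1, the libraries farthest from the median of miR-29a, r was 0.69 (permutation p = 0.00023, adjusted 0.00046). Within ages it was 0.73 (permutation p = 0.00228, adjusted 0.00456). Without 12 months replicate 3 and 24 months replicate 3 it was 0.71. Both levels share the library total, and scaling noise common to a library enters both.

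**Figure D5:**
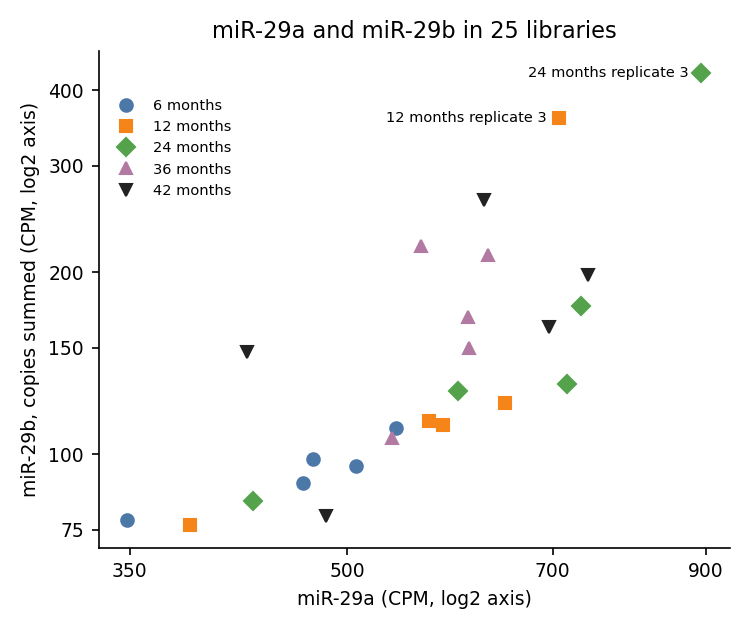
MiR-29b with copies summed (vertical axis) against miR-29a (horizontal axis), both in CPM on log2 axes, 1 point per library with shape and colour for age. The 6-month libraries lie in the lower left, among libraries of other ages such as 12 months replicate 1 and 24 months replicate 5. Above the rest lie 12 months replicate 3 (360.4 CPM of miR-29b) and 24 months replicate 3 (426 CPM).

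The microRNAs whose levels were most like miR-29a over the 25 libraries, by Pearson's r of log2(CPM + 1) among 177 other names, were miR-338 (r = 0.82, Spearman's rho = 0.83), miR-2184 (0.80, rho = 0.79), miR-29b (0.77), miR-101b (0.76, rho = 0.74) and miR-26b (0.73, rho = 0.73). These are a description, since they were picked for their likeness, and no p is given. MiR-338 is known in mammals from oligodendrocytes, and miR-101 and miR-26 as repressors of the histone methyltransferase EZH2. Within ages r was 0.78 for miR-338, 0.75 for miR-2184, 0.68 for miR-101b and 0.82 for miR-26b. Without the 2 libraries farthest from the median of miR-29a it was 0.82, 0.75, 0.68 and 0.68 in the same order. Most like miR-29b were miR-29a (0.77), miR-101b (0.63, rho = 0.61), miR-738 (0.59, rho = 0.49), miR-2184 (0.59, rho = 0.67) and miR-458 (0.56, rho = 0.65). Within ages the last 4 had r of 0.58, 0.57, 0.51 and 0.40, and without the 2 libraries farthest from the median of miR-29b 0.57, 0.49, 0.58 and 0.66. All libraries contribute to both levels, and they share the library total.

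From 6 to 24 months these names had log2 changes in edgeR of 0.89 for miR-101b, 0.84 for miR-458, 0.54 and 0.56 for miR-338-1 and miR-338-2, 0.60 for miR-2184, 0.97 ± 1.07 (SE) for miR-738, whose spread was wide, and 0.22 for miR-26b. The 24- and 6-month libraries were among those that chose the names, which favours changes of the same direction as miR-29, so these values are a description with no test.

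Other microRNAs reported to act on extracellular matrix or fibrosis were called about as often as hairpins in general. Of 26 such hairpins (members of miR-21, miR-26, miR-30, miR-101, miR-133, miR-145, miR-192, miR-199, miR-200 and miR-214) 2 rose and 5 fell in the trend, where 12% of all hairpins rose and 13.2% fell, with a median slope of -0.01 in the list and over all hairpins. Both risers were copies of miR-21, which promotes fibrosis in mammals, with slopes of 0.36 ± 0.07 each (SE, adjusted p = 3.2e-04). The copies held nearly the same levels (means of 30989 and 30510 CPM at 6 months), so the 2 calls may be 1 signal. At 42 months their means were 66667 ± 38918 and 65488 ± 38311 CPM (SD), a wide spread. From 6 to 24 months they changed by 0.37 ± 0.25 each (SE; edgeR quasi-likelihood test, adjusted p = 0.291 and 0.296) and were not called. The miR-200 members b, c and a, which restrain epithelial-to-mesenchymal transition, fell by 0.18, 0.16 and 0.15 per 12 months, and miR-30a and miR-30b by 0.67 and 0.11. MiR-30a was scarce, with means of 26.1 ± 18.1 CPM at 6 months and 2.17 ± 1.71 CPM at 42 months (SD), so its slope rests on few reads. Between 24 and 6 months 2 of the 26 were higher, miR-101b and miR-192 (2.05 ± 0.65, adjusted p = 0.0229), and 4 were lower, the 3 miR-200 members and miR-30a, where 8.91% of all hairpins were higher and 16.3% lower. The median change was 0.18 in the list and 0.05 over all hairpins. MiR-192 is best known from liver and gut. Its values in single libraries are not given here, and the part of other tissues in its change was not tested.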

How the data were processed

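The authors deposited 1 table of counts, unnormalized reads on each hairpin, as whole numbers with unequal totals. The submitters' processing notes name SAMtools 1.3.1-9, BWA 0.7.12-r1039, Trimmomatic 0.36 and CASAVA 1.8.4 without roles; per the labels' protocols, libraries were made with a TruSeq small-RNA kit. The sources used here do not give the counting step, hairpin set or build, so no coordinates are printed. Libraries were grouped by the age label, and replicates numbered in record order.

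Counts were tested in R 4.3.3 with edgeR 4.0.16 (TMM, filterByExpr with minimum count 10 by age, quasi-likelihood F tests, Benjamini-Hochberg over 258 hairpins, threshold 0.05). All 3 miR-29 hairpins passed the filter. The spread was estimated over all 25 libraries. SEs came from the log2 change and F. The fit was also run on counts simulated from its own model, with the spread fitted on all 25 libraries and no outlying library added. Such counts follow the model by construction. That check does not bear on these data or on the libraries set apart below. Alternatives used DESeq2 1.42.0 and limma 3.58.1. Permutation tests used 100000 resamples. Named microRNAs were the 3 members, the 5 names most like miR-29a and like miR-29b at a mean of at least 10 CPM, and the 6 matrix-linked hairpins of smallest p in the trend; miR-30b, miR-192 and miR-122 were named after their values were seen. Members and lists were chosen with earlier results of these data known.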

Additional observations from a re-analysis of the deposited data

Results flagged for a closer look

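In groups of 5 libraries a value was set apart when its gap to the nearest other exceeded 0.71 of the range (Dixon's 95% criterion), which chance meets in about 1 of 20 groups. Of 20 groups (3 hairpins and the share of miR-29a, at 5 ages) 6 were marked, in the same 2 libraries. The measures are not independent, because the copies hold nearly the same counts and may share reads, and the share is made of the counts. MiR-29b-1 and miR-29b-2 in 12 months replicate 3 were at 189 and 172 CPM, with the other libraries of that age between 37.6 and 60.9 and between 38.6 and 60.5 CPM. In 24 months replicate 3 they were at 222.9 and 204 CPM, with the others at most 87.5 and 88.0 CPM. The share of miR-29a in miR-29 counts was lowest in the same libraries, at 66.3% and 67.7%. MiR-29a itself was the highest of its age in both, at 708 and 893 CPM, without being set apart.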

How the results depend on the processing

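The change of miR-29a from 6 to 24 months was above 0 in every setting, between 0.50 and 0.65 on the log2 scale (adjusted p = 0.00447 to 0.0518), and called in 9 of 10. Limma-voom ended the call (0.50), and without each library in turn it was 0.38 to 0.70 (called in 5 of 10). For miR-29b-2 that change was newly called with DESeq2 size factors (1.06), upper-quartile scaling (1.09), only the 2 compared ages (1.07) and DESeq2 (1.06), and for miR-29b-1 with DESeq2 (1.03). Without each library it was 0.38 to 1.20 for miR-29b-1 and 0.47 to 1.23 for miR-29b-2. For any difference among ages miR-29a was newly called with copies summed (adjusted p = 0.0311) and DESeq2 (0.0420). Without each library the adjusted p was 0.0438 to 0.440 for miR-29a, 0.0797 to 0.438 for miR-29b-1 and 0.0301 to 0.328 for miR-29b-2. Of these 25 fits, 2 called miR-29a, 0 called miR-29b-1 and 1 called miR-29b-2. Trend slopes without each library were 0.05 to 0.13, 0.15 to 0.31 and 0.19 to 0.35, and no planned setting other than a left-out library called any of the 3 (smallest adjusted p = 0.0855). Without both libraries lowest in the share of miR-29a, an alternative chosen after seeing the data, miR-29b-1 and miR-29b-2 were called in the trend (0.28 and 0.31) and miR-29b-2 for any difference (adjusted p = 0.0159). These libraries are also the highest in miR-29b of their ages. Their removal lowers the means of 12 and 24 months and narrows the spread that is tested, so these calls support nothing. Among the other changes against 6 months, miR-29a was called at 42 months with copies summed (0.50, adjusted p = 0.0233). The cause was not tested. The share of all hairpins or names called is not given for pairs of ages with copies summed or for limma-voom. Nor is it given for 24 months with only the 2 compared ages, or without both libraries lowest in the share of miR-29a. For single left-out libraries it is given only for the trend without 12 months replicate 3 and for 24 months without replicate 5. Calls and missing calls in fits that lack this share cannot be set against it.

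In the 6 pairs without 6 months 0 calls were made under any setting, and 14 of the 18 changes took another sign under at least 1 alternative. The permutation p of the miR-29a share among ages was 0.142 to 0.532 without each library, and its difference from 6 to 24 months -4.48 to -0.25 percentage points. Upper-quartile scaling moved the median 24-month change of all hairpins by 0.13 and library size alone by 0.11, with miR-29a 0.47 and 0.48 above that median. Calls at 24 months were 23 higher and 42 lower with TMM, 33 and 36 with DESeq2 size factors, 26 and 25 with upper-quartile scaling, and those in the trend 31 and 34 against 20 and 44 with upper-quartile scaling and 25 and 46 with library size alone. The miR-29b copies were not tested at a mean of at least 100 CPM, which they did not reach. No paired analysis was possible because nothing in the labels links libraries across ages. With 42 months replicate 2 at 683884 reads, miR-29b rested there on 82 and 76 reads.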
